A study of Mus musculus with 28 samples.

Results

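The expression of 6 adenosine pathway genes, Entpd1, Nt5e, Adora2a, Adora2b, Adora3 and Ada, was examined in 28 mouse tumors. The genes were taken by name from the deposited count matrices, which hold 55341 gene rows, and all 6 passed the filter on low counts in each fit. The tumors were grown under the skin of female BALB/c.AusBP mice aged 8 to 10 weeks from AB1-HA, a mouse mesothelioma cell line that carries influenza hemagglutinin as a marker antigen. Treatment began when tumors measured 20 to 25 mm2, and whole tumors, each from a different mouse, were collected on day 7 and sequenced in bulk. PBS was given to 4 mice as the control. Immune checkpoint blockade (ICB) was given to 5 mice as 1 dose of anti-CTLA-4 and 3 doses of anti-PD-L1, with 100 µg of antibody per dose. The antimetabolite 5-FU was given at 75 mg/kg to 5 mice and the platinum drug cisplatin at 6 mg/kg to 4 mice. The remaining mice received 5-FU+ICB (n = 5) or cisplatin+ICB (n = 5). All tumors derived from a single cell line, and no batch was given in the labels.

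Adenosine is a purine nucleoside that dampens immune responses when it builds up outside cells. ATP released from stressed or dying cells is cut to AMP by the ectonucleotidase CD39, encoded by Entpd1, and AMP is cut to adenosine by CD73, encoded by Nt5e. Adenosine then acts on G protein-coupled receptors. The A2a receptor (Adora2a) and the A2b receptor (Adora2b) raise cyclic AMP (cAMP) through the stimulatory G protein, whereas the A1 receptor (Adora1) and the A3 receptor (Adora3) signal through inhibitory G proteins. Adenosine deaminase (Ada) ends the signal by turning adenosine into inosine. In tumors CD39 is known on macrophages, regulatory T cells and exhausted CD8 T cells, and the A2a receptor is known for restraining T cells.

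All positions are given on GRCm38 and come from GENCODE M21. Entpd1 spans chr19:40612366-40741602 on the plus strand. Nt5e spans chr9:88327197-88372092 and Adora2a spans chr10:75316877-75334784, both on the plus strand. Adora2b lies at chr11:62248984-62266453 and Adora3 at chr3:105870858-105908926, again on the plus strand, and Ada lies at chr2:163726584-163750239 on the minus strand. Adora3 shares 779 exon bases, 20.9% of its exons, with Tmigd3 on the same strand, so its counts are uncertain to the extent that reads were divided between these genes. Tmigd3 itself lay between 0 and 0.885 CPM (counts scaled to the effective library size) in the 28 tumors.

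The bases before the start site are shown because these genes moved with treatment and because sites for hypoxia, cAMP and interferon-linked factors have been studied in this pathway. RefSeq promoters on GRCm38.p6 were found for 5 of the 6 genes (2 for Entpd1), and Adora2a is named only. The motifs searched on both strands in the 250 bases before the start were the hypoxia response cores ACGTG and GCGTG, the short cAMP response element TGACG and its full palindrome TGACGTCA (which contains the short form), the STAT site TTCNNNGAA and the AP-1 site TGANTCA. Capitals mark the match. The Entpd1 stretch covers the 132 bases at chr19:40612234-40612365, since bases further upstream lie in exons of Tctn3. The Adora2b stretch is chr11:62248734-62248983, the Adora3 stretch is chr3:105904171-105904420, and the Ada stretch is chr2:163750240-163750489, read on the minus strand.
Entpd1: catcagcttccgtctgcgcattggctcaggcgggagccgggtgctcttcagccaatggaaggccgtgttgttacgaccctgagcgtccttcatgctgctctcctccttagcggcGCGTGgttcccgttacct
Adora2b: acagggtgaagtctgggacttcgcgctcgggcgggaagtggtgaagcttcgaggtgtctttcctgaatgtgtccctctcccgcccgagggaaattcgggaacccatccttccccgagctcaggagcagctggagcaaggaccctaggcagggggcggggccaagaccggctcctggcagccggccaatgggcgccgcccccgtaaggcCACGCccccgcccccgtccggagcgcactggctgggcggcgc
Adora3: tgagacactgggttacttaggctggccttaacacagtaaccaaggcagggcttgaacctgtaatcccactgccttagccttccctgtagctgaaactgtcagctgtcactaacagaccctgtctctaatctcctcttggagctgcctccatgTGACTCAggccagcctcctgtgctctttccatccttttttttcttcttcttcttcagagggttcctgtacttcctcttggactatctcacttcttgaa
Ada: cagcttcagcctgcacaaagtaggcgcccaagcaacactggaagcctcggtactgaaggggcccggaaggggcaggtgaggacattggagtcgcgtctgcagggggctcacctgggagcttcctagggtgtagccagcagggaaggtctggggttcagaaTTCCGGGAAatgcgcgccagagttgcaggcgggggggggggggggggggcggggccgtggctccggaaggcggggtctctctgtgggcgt
GCGTG began at position -18 of Entpd1 and, on the minus strand, at position -42 of Adora2b, counted from the start site. The core GCGTG occurred in 28.2% of 32851 promoter windows of the same length, so its presence is common. Adora3 held the AP-1 letters TGACTCA at position -98, a motif found in 6.75% of windows. Ada held a STAT match at position -90, a motif found in 7.02% of windows. A TGACG match, found in 17.8% of windows, lay on the minus strand at position -135 of Entpd1, outside the printed stretch, and another on the minus strand at position -183 of a downstream start site of Entpd1, whose promoter is not printed. Nt5e held GCGTG at position -138. Its start site, chr9:88327609, lies inside the Nt5e gene span, and the window is not printed because annotated exons reach up to it. The Adora3 start site, chr3:105904421, also lies inside its gene span. ACGTG, found in 16.6% of windows, and the palindrome TGACGTCA, found in 1.55%, were not among these matches. The matches are descriptions of sequence only.

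Total estimated counts per tumor ranged from 23541733 to 33950805, so that 3 counts, the floor used here, stood for 0.0884 to 0.127 CPM. A few libraries stood apart in their marker genes. In 5-FU+ICB tumor 5, the mesothelin gene Msln, a marker of mesothelioma cells, had 10 counts (0.5001 CPM), compared to 34.4 to 654 CPM in the other 27 tumors, while the summed B cell markers reached 770.0 CPM and the summed skeletal muscle markers 4149 CPM. In 5-FU+ICB tumor 2, the leukocyte gene Ptprc (CD45) had 105 CPM, compared to 342 to 723 CPM in the rest of its group. Cisplatin+ICB tumor 1 had 118 CPM of Ptprc, compared to 138 (tumor 3) to 361 CPM in the rest of its group. Its summed level of 10 hypoxia-induced genes was 5584 CPM, compared to 921 to 1309 CPM in the rest of its group. Msln was the one mesothelioma marker of 6 that the PBS tumors held at a high level (271 to 358 CPM). Upk3b was at 0 to 0.0671 CPM and Wt1 at 0 to 2.78 CPM. The keratin genes Krt8, Krt18 and Krt19 were at 33.4, 27.2 and 48.9 CPM in 5-FU+ICB tumor 5, compared to at most 9.33, 1.52 and 1.86 CPM in the other 27 tumors. For calls of the 6 genes compared to PBS that include these libraries, the values without them are also given. Since the tissue was whole tumor, fewer cells of a type and less RNA per cell cannot be told apart.

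All 6 genes differed among the 6 groups when edgeR's quasi-likelihood test was applied to all tumors together, with adjusted p-values of 0.00075 for Entpd1, 0.0014 for Adora2a, 0.0045 for Adora3, 0.0129 for Nt5e, 0.0208 for Adora2b and 0.0343 for Ada. Of all 18521 genes tested, 31.0% passed this test. Leaving out 1 tumor gave 5 to 6 of the 6 genes (Ada was lost), at least 10 counts in every tumor gave 5 and a replicate block gave 4. For the comparisons that follow, a gene was called changed when the adjusted p was under 0.05 and the log2 fold change was over 0.5 in size. By edgeR, Entpd1, Adora2a and Adora3 were called after ICB, 5-FU and both combinations, Adora2b after 5-FU+ICB and Nt5e after cisplatin+ICB, each compared to PBS. Ada was called in none of these by edgeR, and none of the 6 genes was called after cisplatin alone by edgeR or DESeq2 (1, Nt5e, at an unadjusted p under 0.05). The same 4 PBS tumors served as the control in each of these comparisons, so they are not independent of each other.

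**Figure D1:**
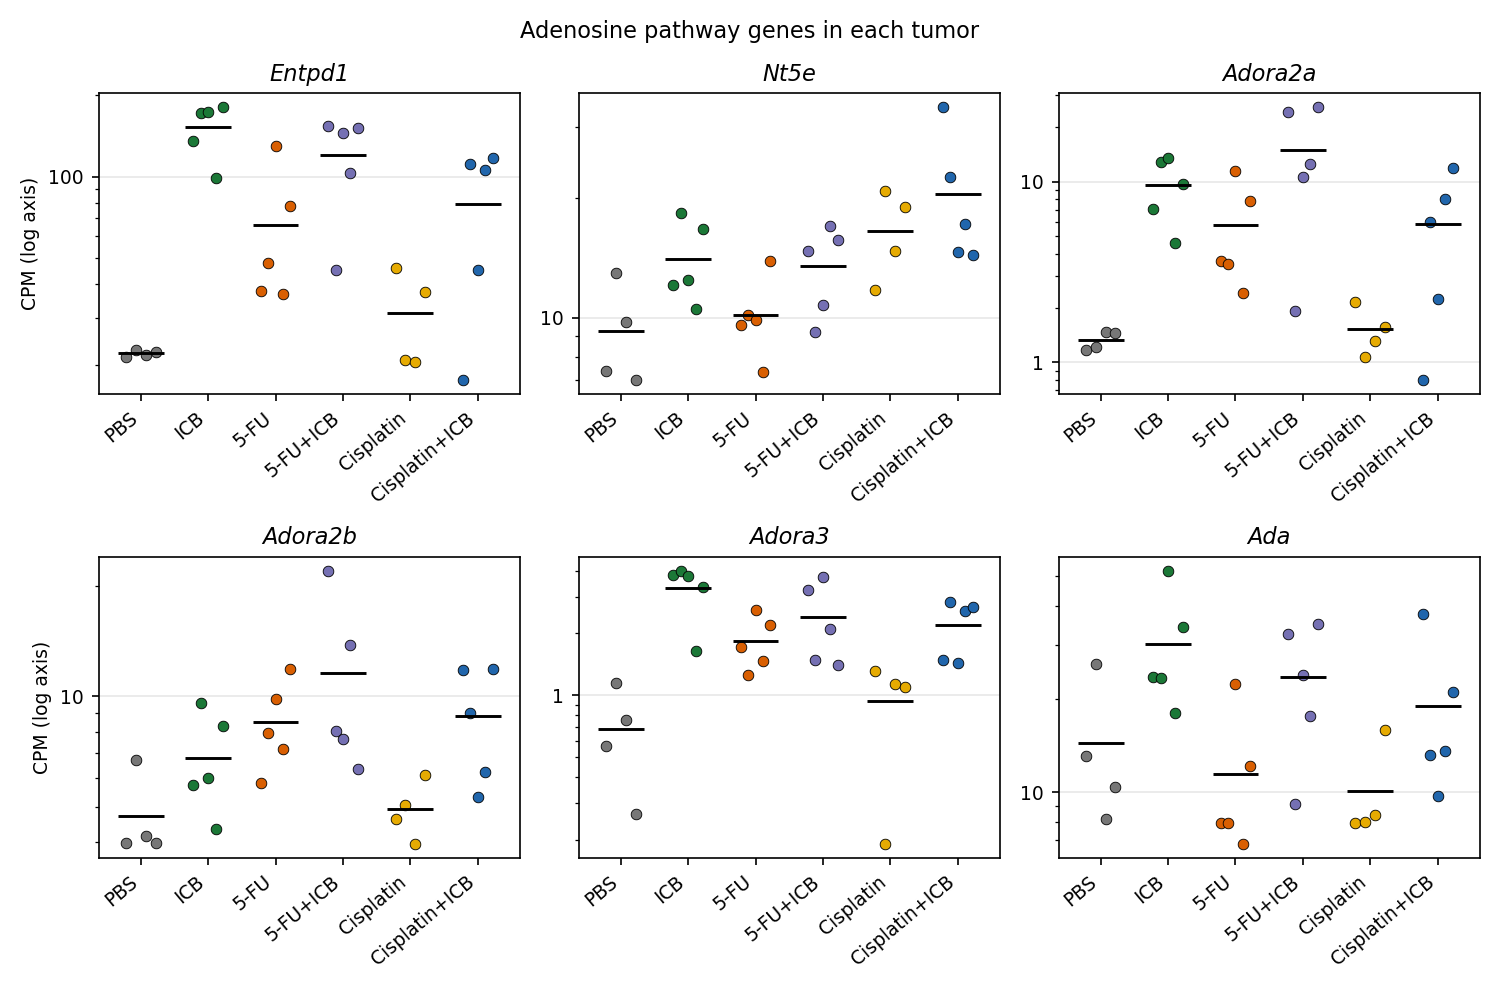
Level of each gene in CPM (log axis) in every tumor of the 6 treatment groups; points are tumors and lines are group means. The 4 PBS tumors lie between 21.5 and 22.8 CPM for Entpd1, below all 5 ICB tumors, while Nt5e is highest in the cisplatin groups.

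The share of all genes called sets the background for these counts. In ICB compared to PBS 37.8% of 17916 genes were called, in 5-FU compared to PBS 23.0%, and in 5-FU+ICB compared to PBS 40.7%. In cisplatin+ICB compared to PBS the share was 6.10% of 17819 genes, and in cisplatin compared to PBS it was 0 by edgeR (317 genes at an unadjusted p under 0.05, and 4 genes by DESeq2). When ICB was compared to PBS within the cisplatin matrix, the share was 26.2%, and the same 3 genes, Entpd1, Adora2a and Adora3, were called. Thus 3 of 6 genes after ICB and 3 of 6 after 5-FU are to be read against backgrounds in which changes were frequent. The share of all genes whose groups did not overlap was not counted, so non-overlap of the 6 genes has no background.

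Entpd1 starts the conversion of extracellular ATP. In PBS tumors 1 to 4 it had 21.5, 22.8, 21.9 and 22.3 CPM (22.1 ± 0.570, mean ± SD). In ICB tumors 1 to 5 it had 135, 172, 174, 99.2 and 181 CPM (152 ± 34.6). All ICB tumors thus exceeded all PBS tumors, and the PBS tumors were nearly identical. The log2 fold change was 2.81 ± 0.41 (SE), a 7.00-fold higher level with a 95% interval of 2.01 to 3.60 on the log2 scale and an adjusted p of 0.00023 by edgeR.

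After 5-FU alone, Entpd1 had 37.8, 47.8, 130, 36.8 and 77.8 CPM in tumors 1 to 5 (66.0 ± 39.4). Each 5-FU tumor exceeded each PBS tumor, but the spread was wide and tumor 3 stood highest. The increase was 3.02-fold (log2 1.59 ± 0.39, edgeR adjusted p = 0.0098), and 2.28-fold without tumor 3 (adjusted p = 0.0251). After 5-FU+ICB, Entpd1 had 154, 45.0, 145, 103 and 152 CPM (120.0 ± 46.8), with tumor 2, the tumor of low Ptprc, far below the rest. Entpd1 rose 5.53-fold compared to PBS (log2 2.47 ± 0.40, adjusted p = 0.0006), with log2 fold changes of 2.68 without tumor 2 and 2.37 without tumor 5.

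In cisplatin tumors 1 to 4, Entpd1 had 46.0, 20.9, 20.5 and 37.4 CPM (31.2 ± 12.6). Tumors 2 and 3 lay just below the PBS range and tumors 1 and 4 above it, and the difference from PBS was not significant (log2 0.50). After cisplatin+ICB the tumors had 17.5, 111, 44.9, 106 and 117 CPM (79.2 ± 45.0). The group overlapped PBS only through tumor 1, at 17.5 CPM. Entpd1 was 3.62-fold higher than in PBS (log2 1.86 ± 0.43, edgeR adjusted p = 0.0234), and 4.54-fold higher without tumor 1 (adjusted p = 0.00069). This call was lost in 8 of 25 alternative analyses, with adjusted p-values up to 0.105.

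Nt5e, the gene of the AMP-cleaving enzyme CD73, followed a different order. In PBS it had 7.38, 13.0, 9.76 and 6.98 CPM (9.27 ± 2.76), and after ICB 12.1, 18.3, 12.4, 10.5 and 16.7 CPM (14.01 ± 3.32). These ranges overlapped, and the log2 difference of 0.61 ± 0.26 did not pass the adjusted threshold (adjusted p = 0.0665). It passed without PBS tumor 2 (log2 0.86, adjusted p = 0.0212) and without ICB tumor 4 (log2 0.70, adjusted p = 0.0443), and also with DESeq2 (log2 0.66, adjusted p = 0.0392) and with at least 10 counts in every tumor (log2 0.69, adjusted p = 0.0424). The 5-FU tumors had 9.59, 10.2, 9.89, 7.33 and 13.9 CPM (10.2 ± 2.37), of which only tumor 5 lay above the PBS range (log2 0.14).

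The highest Nt5e levels were seen with cisplatin. Cisplatin tumors had 11.7, 20.8, 14.7 and 18.9 CPM (16.5 ± 4.10), and cisplatin+ICB tumors had 33.7, 22.5, 14.6, 17.1 and 14.4 CPM (20.5 ± 8.08). All 5 cisplatin+ICB tumors exceeded all 4 PBS tumors, whereas cisplatin alone overlapped PBS through tumor 1. Nt5e was 2.22-fold higher in cisplatin+ICB than in PBS (log2 1.15 ± 0.29, edgeR adjusted p = 0.0295). Without tumor 1, which was the highest, the increase was 1.94-fold (adjusted p = 0.0105), and over all alternatives the adjusted p ranged from 0.0013 to 0.113, with 18 of 25 calling it. Cisplatin alone gave a log2 difference of 0.84 ± 0.30 with an unadjusted p of 0.0116 but an adjusted p of 1. Averaged over tumors with and without ICB, the cisplatin effect on Nt5e was log2 0.69 ± 0.19 (unadjusted p = 0.0013, adjusted p = 0.936), and 0.00540% of all genes were called for this effect. After 5-FU+ICB, Nt5e had 14.7, 9.21, 10.7, 17.0 and 15.7 CPM (13.5 ± 3.34), overlapping PBS, and the log2 difference of 0.56 was not significant (adjusted p = 0.0870). It passed without PBS tumor 2 (log2 0.80, adjusted p = 0.0276) and without 5-FU+ICB tumor 2 (log2 0.68, adjusted p = 0.0343).

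Adora2a, the gene of the cAMP-raising A2a receptor, had few counts in PBS. PBS tumors 1 to 4 had 1.18, 1.22, 1.48 and 1.46 CPM (1.34 ± 0.159), equal to 29 to 44 counts. ICB tumors 1 to 5 had 7.09, 12.9, 13.4, 4.60 and 9.67 CPM (9.53 ± 3.76), so every ICB tumor lay above every PBS tumor. The increase was 7.28-fold (log2 2.86 ± 0.62, 95% interval 1.65 to 4.08, edgeR adjusted p = 0.0021).

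The 5-FU tumors had 3.64, 3.49, 11.4, 2.41 and 7.82 CPM of Adora2a (5.76 ± 3.79), with tumors 3 and 5 highest and no overlap with PBS. The 4.36-fold increase was called (log2 2.13 ± 0.60, edgeR adjusted p = 0.0186) but was lost in 5 of 26 alternatives, including without PBS tumor 1 (adjusted p = 0.0582), PBS tumor 2 (adjusted p = 0.0634) or 5-FU tumor 3 (adjusted p = 0.0503), with a replicate block (adjusted p = 0.0506) and with all 6 groups in one fit (adjusted p = 0.0585). After 5-FU+ICB the tumors had 24.3, 1.92, 10.6, 12.4 and 25.8 CPM (15.0 ± 10.0), and the lowest of them, tumor 2, still exceeded the PBS tumors. This was the largest change among the 6 genes in any comparison, 11.5-fold (log2 3.52 ± 0.64, adjusted p = 0.0009). The log2 fold change was 3.81 without tumor 2 and 3.23 without tumor 5.

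Cisplatin alone left Adora2a at 2.16, 1.07, 1.31 and 1.57 CPM (1.53 ± 0.468), around the PBS values (log2 0.20). Cisplatin+ICB tumors had 0.795, 5.99, 2.24, 8.01 and 11.9 CPM (5.79 ± 4.48), and only tumor 1 fell below the PBS range. The increase over PBS was 4.38-fold (log2 2.13 ± 0.56, edgeR adjusted p = 0.0352), and 5.61-fold without tumor 1 (adjusted p = 0.0016). It was called in 15 of 25 alternatives, with adjusted p-values between 0.0016 and 0.162.

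Adora2b, the gene of the low-affinity A2b receptor, was called by edgeR compared to PBS after 5-FU+ICB but not after the other treatments. PBS tumors had 3.97, 6.71, 4.16 and 3.99 CPM (4.71 ± 1.34), with tumor 2 standing above the others, and ICB tumors had 5.72, 9.60, 6.00, 4.36 and 8.31 CPM (6.80 ± 2.11). These groups overlapped, and the log2 difference of 0.55 ± 0.36 was not significant (adjusted p = 0.226). The 5-FU tumors had 5.81, 7.94, 9.84, 7.18 and 11.9 CPM (8.53 ± 2.37), overlapping PBS only through PBS tumor 2 (log2 0.85 ± 0.36, edgeR adjusted p = 0.0846). DESeq2 called this difference (log2 0.91, adjusted p = 0.0459), as did edgeR with the compared groups alone (adjusted p = 0.0432).

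In 5-FU+ICB tumors Adora2b had 22.001, 8.03, 7.66, 13.8 and 6.35 CPM (11.6 ± 6.49). Tumors 1 and 4 were highest, and only tumor 5 fell below PBS tumor 2. The increase over PBS was 2.47-fold (log2 1.31 ± 0.36, edgeR adjusted p = 0.0087), and the log2 fold change was 1.42 without tumor 2 and 1.46 without tumor 5. Cisplatin tumors had 4.62, 5.07, 3.96 and 6.10 CPM (4.94 ± 0.900), close to PBS. Cisplatin+ICB tumors had 11.8, 8.99, 5.30, 6.22 and 11.8 CPM (8.82 ± 3.04), overlapping PBS, with a log2 difference of 0.92 that missed the threshold (adjusted p = 0.0690) but passed it without cisplatin+ICB tumor 1 (log2 0.85, adjusted p = 0.0397) or tumor 3 (log2 1.06, adjusted p = 0.0335). It also passed with DESeq2 (log2 0.99, adjusted p = 0.0180) and with at least 10 counts in every tumor (adjusted p = 0.0496).

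Adora3, the gene of the A3 receptor, had few counts in PBS. PBS tumors had 0.5678, 1.15, 0.759 and 0.266 CPM (0.686 ± 0.371), which stood for 14, 34, 21 and 8 counts. ICB tumors had 3.85, 4.03, 3.79, 1.64 and 3.36 CPM (3.34 ± 0.976). ICB tumor 4 was the lowest of its group but still exceeded every PBS tumor. The increase was 4.87-fold (log2 2.29 ± 0.44, 95% interval 1.43 to 3.14, edgeR adjusted p = 0.0011).

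The 5-FU tumors had 1.73, 1.26, 2.58, 1.47 and 2.19 CPM of Adora3 (1.84 ± 0.539), all above PBS. The 2.66-fold increase (log2 1.41 ± 0.43, edgeR adjusted p = 0.0239) was lost without PBS tumor 1 (adjusted p = 0.0745), PBS tumor 4 (0.0565), 5-FU tumor 3 (0.0554) or 5-FU tumor 5 (0.0539). 5-FU+ICB tumors had 3.24, 1.49, 3.77, 2.10 and 1.4002 CPM (2.40 ± 1.06), above PBS in each case, a 3.50-fold increase (log2 1.81 ± 0.43, adjusted p = 0.0037) that was log2 1.95 both without tumor 2 and without tumor 5. Cisplatin tumors had 1.31, 0.190, 1.14 and 1.10 CPM (0.935 ± 0.505), spanning the PBS range. Cisplatin+ICB tumors had 1.48, 2.84, 1.44, 2.57 and 2.69 CPM (2.21 ± 0.684), all above PBS (3.24-fold, log2 1.69 ± 0.49, adjusted p = 0.0474, and 3.63-fold without tumor 1, adjusted p = 0.0103). The last call held in 8 of 24 alternatives, with adjusted p-values between 0.0043 and 0.146. The deposited counts do not show how reads of the exons shared with Tmigd3 were divided.

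Adora1, the A1 receptor gene, is the remaining adenosine receptor and was not one of the 6 genes. It had 0 to 113 counts per tumor, and its exons overlap Mybph on the opposite strand over 1162 bases (20.1%), so reads from these genes cannot be told apart unless strand was used in counting, which is not given in the sources used here. In 5-FU tumors it had 1.75, 0.0719, 0.713, 2.54 and 4.05 CPM, tumor 2 being under the floor of 3 counts. Compared to PBS, Adora1 was not called by edgeR after 5-FU (log2 3.003, adjusted p = 0.0727), 5-FU+ICB (log2 2.85, adjusted p = 0.0615) or cisplatin+ICB (log2 2.12, adjusted p = 0.173), and DESeq2 called the 5-FU and 5-FU+ICB differences. Averaged over tumors with and without ICB, the 5-FU effect on Adora1 was log2 2.67 ± 0.74 (edgeR adjusted p = 0.0290), and this call was lost without 5-FU+ICB tumor 5 (log2 2.15, adjusted p = 0.0744) and without 5-FU tumor 5 (log2 2.41, adjusted p = 0.0627). It held in 26 of 33 alternatives, the losses including those without PBS tumor 1 (0.0712), PBS tumor 2 (0.0689), ICB tumor 1 (0.0513) and ICB tumor 5 (0.0506). Mybph is a muscle gene. The summed skeletal muscle markers had a median of 126 CPM in PBS, 1139 CPM after 5-FU and 727 CPM after 5-FU+ICB. The median was 43.3 CPM after ICB, 129 CPM after cisplatin and 296 CPM after cisplatin+ICB. The highest value, 4149 CPM, was in 5-FU+ICB tumor 5. An ICB tumor reached 3038 CPM, while Adora1 had 0 to 1.11 CPM after ICB. The part of muscle in the Adora1 values was not tested.

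Ada, which removes adenosine, varied among the PBS tumors. PBS tumors had 13.1, 26.04, 8.20 and 10.4 CPM (14.4 ± 7.98), and ICB tumors had 23.5, 23.4, 52.0, 18.1 and 34.1 CPM (30.2 ± 13.5). Only PBS tumor 2 reached the ICB range. The log2 difference of 1.05 ± 0.46 missed the threshold (edgeR adjusted p = 0.0755), and it passed without PBS tumor 2 (log2 1.54, adjusted p = 0.0232) and with DESeq2 (log2 1.11, adjusted p = 0.0450). The 5-FU tumors had 7.94, 7.98, 22.4, 6.81 and 12.1 CPM (11.5 ± 6.45) and the cisplatin tumors 7.94, 8.0004, 8.45 and 15.9 CPM (10.1 ± 3.91), both overlapping PBS. Their log2 differences from PBS were -0.35 and -0.51, and neither was significant.

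With ICB added, Ada had 32.4, 9.15, 24.0, 17.6 and 35.1 CPM after 5-FU+ICB (23.6 ± 10.7) and 37.6, 13.2, 9.72, 13.6 and 21.1 CPM after cisplatin+ICB (19.1 ± 11.2). The lowest 5-FU+ICB tumor was tumor 2 and the highest cisplatin+ICB tumor was tumor 1, and both groups overlapped PBS (log2 0.71, adjusted p = 0.215, and log2 0.41). Without cisplatin+ICB tumor 1, the cisplatin+ICB difference was log2 0.05 (adjusted p = 0.936).

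The calls of cisplatin+ICB compared to PBS depended on single tumors of both groups. The Entpd1 call was lost without PBS tumor 1, 3 or 4 or cisplatin+ICB tumor 2, 4 or 5 (adjusted p = 0.0566 to 0.0880). The Nt5e call was lost without PBS tumor 1, 3 or 4 or cisplatin+ICB tumor 2 or 4 (0.0556 to 0.112), and the Adora2a call without any 1 PBS tumor or cisplatin+ICB tumor 2, 4 or 5 (0.0729 to 0.117). The Adora3 call was lost without PBS tumor 1, 3 or 4, ICB tumor 1, 2, 3 or 5, cisplatin tumor 1, 3 or 4, or cisplatin+ICB tumor 2, 4 or 5 (0.0526 to 0.146).

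**Figure D2:**
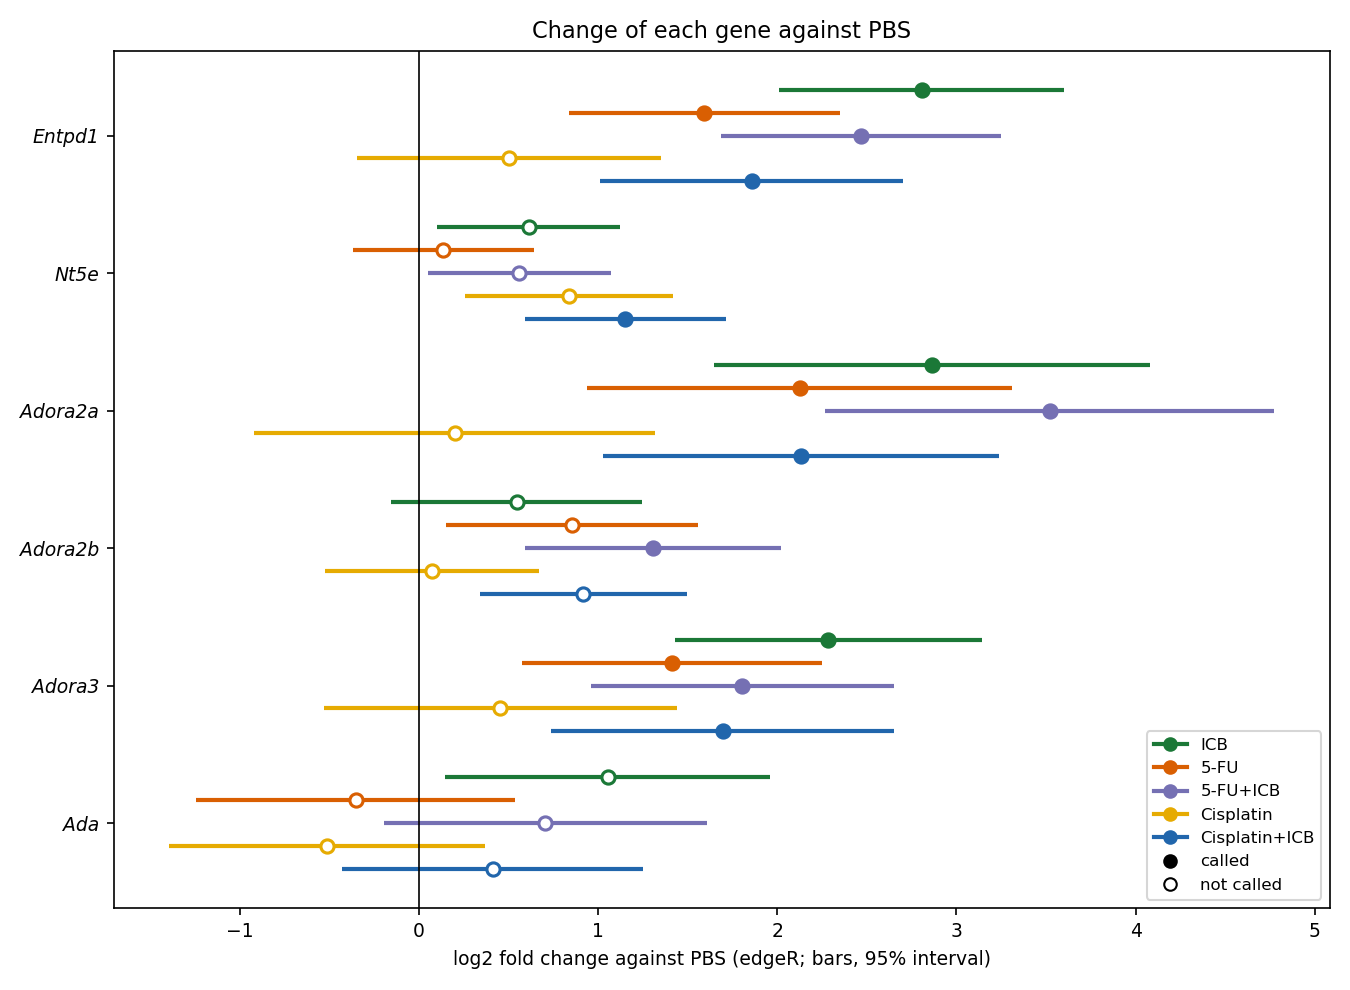
Log2 fold change of each gene in each treated group compared to PBS, with bars for the 95% interval and filled symbols where the gene was called. Adora2a after 5-FU+ICB lies highest at 3.52, and no cisplatin symbol is filled.

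To ask what ICB did across all backgrounds, its effect was averaged over PBS, 5-FU and cisplatin tumors. Of all genes, 24.4% were called for this effect, compared to 5 of the 6 adenosine genes. Entpd1 rose by log2 1.66 ± 0.26 (edgeR adjusted p = 6.17e-05), Adora2a by 2.05 ± 0.36 (adjusted p = 0.0002), Adora3 by 1.30 ± 0.25 (adjusted p = 0.0005), Ada by 1.01 ± 0.26 (adjusted p = 0.0044) and Adora2b by 0.60 ± 0.19 (adjusted p = 0.0171). Nt5e had an adjusted p of 0.0302 but a log2 difference of 0.44, below the size threshold, and it was called without PBS tumor 2 (log2 0.5005, adjusted p = 0.0163) and with at least 10 counts in every tumor (log2 0.53, adjusted p = 0.0141). Of 33 alternatives with a test, the Ada call held in all, and the Adora2b call was lost in 1, without 5-FU+ICB tumor 1 (log2 0.48). Relative to Ptprc, which gives a value with no test, both turned sign, to log2 -0.33 for Ada and -0.78 for Adora2b. On that scale Nt5e was at -0.89, Entpd1 at 0.28 and Adora2a at 0.44. Adora3 was at 0.0013 (-0.09 without 5-FU+ICB tumor 2, 0.15 without 5-FU+ICB tumor 5 and -0.03 without cisplatin+ICB tumor 1). The same 5 genes were called without 5-FU+ICB tumor 5, and also without 5-FU+ICB tumor 2 and cisplatin+ICB tumor 1 together.

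The average effect of 5-FU over tumors with and without ICB was called for Adora2b (1.75-fold, log2 0.81 ± 0.23, edgeR adjusted p = 0.0322) and Adora2a (2.60-fold, log2 1.38 ± 0.43, adjusted p = 0.0478), compared to 6.73% of all genes. Entpd1 was at log2 0.62 (adjusted p = 0.214), Adora3 at 0.47 and Ada at -0.35. The Adora2a call held in 12 of 33 alternatives. It was lost without 5-FU+ICB tumor 5 (log2 1.24, adjusted p = 0.0953), the tumor with hardly any Msln, and without any 1 of PBS tumors 1 to 4, ICB tumors 1, 2, 4 and 5, 5-FU tumors 3 and 5, cisplatin tumors 1 to 4, 5-FU+ICB tumors 1 and 4 and cisplatin+ICB tumors 2 and 4, with adjusted p-values of 0.0511 to 0.109. Without 5-FU+ICB tumor 2 it was log2 1.52 (adjusted p = 0.0126). The Adora2b call held in 23 of 33. It was lost without any 1 of PBS tumors 1, 3 and 4, ICB tumors 1 and 4, 5-FU tumors 3 and 5 and 5-FU+ICB tumors 1 and 4, with adjusted p-values of 0.0501 to 0.0758, and it was log2 0.89 without 5-FU+ICB tumor 5 (adjusted p = 0.0237) and 0.86 without 5-FU+ICB tumor 2 (adjusted p = 0.0183).

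The combinations were then compared to their single treatments. None of the 6 genes was called between 5-FU+ICB and ICB by edgeR or DESeq2, where edgeR called 0.229% of all genes, and 1 of the 6, Adora2b, and 1947 of all genes had an unadjusted p under 0.05. The log2 differences ranged from -0.48 for Adora3 to 0.76 for Adora2b, whose 95% interval was 0.11 to 1.42 (unadjusted p = 0.0348, adjusted p = 0.413). By edgeR and by DESeq2 none was called between 5-FU+ICB and 5-FU (0.0112% of all genes by edgeR), where 3 of the 6 and 2983 of 17916 genes had an unadjusted p under 0.05. Here Adora2a was at log2 1.396, Ada at 1.06 and Entpd1 at 0.87, with adjusted p-values of 0.216 to 0.236. Without 5-FU+ICB tumor 2 this comparison called Adora2a (log2 1.68, adjusted p = 0.0267) and Entpd1 (log2 1.09, adjusted p = 0.0346), and without 5-FU tumor 3 it called Entpd1 (log2 1.28, adjusted p = 0.0439).

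The interaction asks whether the ICB effect differed between tumors with and without 5-FU. It was log2 -1.93 ± 0.51 for Entpd1 (edgeR adjusted p = 0.0668) and -1.89 ± 0.57 for Adora3 (adjusted p = 0.0746), so neither was called, and 0.0893% of all genes were. The 95% intervals, -2.94 to -0.92 and -3.01 to -0.78, lay below 0. Without PBS tumor 3 the Entpd1 interaction passed (log2 -1.89, adjusted p = 0.0442), and DESeq2 called Entpd1 (log2 -1.99, adjusted p = 0.0109) and Adora3 (log2 -1.95, adjusted p = 0.0174). Of all genes, DESeq2 called 1542, and 4283 of 17916 had an unadjusted edgeR p under 0.05. Without 5-FU+ICB tumor 2 the Entpd1 interaction was -1.72, and without 5-FU+ICB tumor 5 it was -2.04. The values for Adora2a, -1.47, Nt5e, -0.19, Adora2b, -0.09, and Ada, 0.01, had wider or central intervals and were not called.

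Neither cisplatin+ICB compared to ICB nor cisplatin+ICB compared to cisplatin called any of the 6 genes by edgeR, and the share of all genes called was 0 in both. At an unadjusted p under 0.05, 2839 and 2530 of all genes and 1 and 5 of the 6 passed, and DESeq2 called 52 and 783 of all genes and 0 and 2 of the 6. In the former, Entpd1 was at log2 -0.94 (95% interval -1.70 to -0.18) and Nt5e at 0.55 (unadjusted p = 0.0538). In the latter, Adora2a was at log2 1.93 (adjusted p = 0.125) and Entpd1 at 1.35 (adjusted p = 0.149). Without cisplatin+ICB tumor 1, the tumor with the lowest Ptprc of its group, both were called compared to cisplatin (Adora2a log2 2.27, adjusted p = 0.0073, and Entpd1 log2 1.66, adjusted p = 0.0072), and Adora2a was also called without tumor 3 (log2 2.14, adjusted p = 0.0449). The interaction of cisplatin and ICB called none of the 6 genes and 0 of all genes by edgeR, with Entpd1 at log2 -1.44. At an unadjusted p under 0.05, 1273 of all genes and 1 of the 6, Entpd1, passed, and DESeq2 called 1 of all genes and 0 of the 6.

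The chemotherapies were compared directly in a joined table of all 28 tumors. Between 5-FU and cisplatin, 0.362% of all genes and none of the 6 were called by edgeR, while 5 of the 6 and 2876 of 18521 genes passed an unadjusted p under 0.05, and DESeq2 called 1 of the 6, Adora2a, and 663 genes. Adora2a did not overlap between these groups, with 2.41 to 11.4 CPM after 5-FU and 1.07 to 2.16 CPM after cisplatin, and its log2 difference was 1.91 ± 0.64 (unadjusted p = 0.0064, edgeR adjusted p = 0.159). It was called without cisplatin+ICB tumor 1 (adjusted p = 0.0439). Entpd1 was at log2 1.08 and Nt5e at -0.70. When 5-FU+ICB tumor 2 and cisplatin+ICB tumor 1 were both left out, Adora2a (adjusted p = 0.0164), Entpd1 (0.0437) and Nt5e (0.0472) were called, although neither tumor belongs to the groups compared. The share of all genes called in that fit, and the share without overlap between 5-FU and cisplatin, were not counted. Between 5-FU+ICB and cisplatin+ICB, 0.297% of all genes and none of the 6 were called by edgeR, 2 of the 6 and 4754 of all genes passed an unadjusted p under 0.05, and DESeq2 called 0 of the 6 and 1620 genes. Adora2a was at log2 1.37 and Nt5e at -0.60, both with an adjusted p of 0.145, and Adora2a was called without 5-FU+ICB tumor 2 (log2 1.65, adjusted p = 0.0447).

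The order of the group means in CPM summarizes these patterns. Entpd1 and Adora3 ran from ICB through 5-FU+ICB, cisplatin+ICB, 5-FU and cisplatin down to PBS, and Adora2a had the same order except that 5-FU+ICB stood first. Cisplatin+ICB and 5-FU were close for Adora2a (5.79 and 5.76 CPM), and by mean log2 CPM 5-FU stood above cisplatin+ICB (2.31 and 2.04). Adora2b ran from 5-FU+ICB through cisplatin+ICB, 5-FU, ICB and cisplatin to PBS. Nt5e ran from cisplatin+ICB through cisplatin, ICB, 5-FU+ICB and 5-FU to PBS, and Ada from ICB through 5-FU+ICB, cisplatin+ICB, PBS and 5-FU to cisplatin. Neighbours in these orders overlapped in range, apart from Adora2a in 5-FU and cisplatin.

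To compare levels between genes, mean CPM was divided by the length of the merged exons in kilobases. On this scale the PBS level was 7.21 for Ada, 3.96 for Entpd1, 2.55 for Adora2b, 1.08 for Nt5e, 0.436 for Adora2a and 0.184 for Adora3. After ICB, Entpd1 stood first at 27.3, followed by Ada at 15.1, Adora2b at 3.68, Adora2a at 3.11, Nt5e at 1.63 and Adora3 at 0.894. Among the receptors, the A2b gene led in PBS and also in 5-FU+ICB, at 6.27 compared to 4.90 for the A2a gene. These per-length levels use all annotated exons, and transcripts that use fewer exons would be placed too low.

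Several markers of leukocytes moved with these genes. Ptprc had 92.2, 105, 75.0 and 96.0 CPM in PBS and 314, 419, 443, 245 and 402 CPM after ICB. It had 138, 143, 331, 97.7 and 268 CPM after 5-FU and 155, 77.3, 80.1 and 144 CPM after cisplatin. With ICB added, it had 466, 105, 342, 374 and 723 CPM after 5-FU+ICB and 118, 279, 138, 316 and 361 CPM after cisplatin+ICB. The tumors with high Entpd1 and Adora2a within a group, such as 5-FU tumors 3 and 5, were also those with high Ptprc.

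In ICB compared to PBS, 5 of 5 T cell markers, 2 of 2 CD8 markers, 6 of 6 macrophage markers, 3 of 4 regulatory T cell markers, 2 of 4 monocyte markers, 2 of 4 neutrophil markers and 2 of 5 mast cell markers were called higher, against 19.0% of all genes. Of 4 B cell markers 0 were called by edgeR (0 also at an unadjusted p under 0.05), and their sum was 13.6 to 17.3 CPM in PBS and 6.64 to 24.4 CPM (median 7.91) after ICB. The summed T cell markers ranged from 17.2 to 32.1 CPM in PBS and from 82.0 to 332 CPM after ICB. The summed macrophage markers ranged from 1349 to 2059 CPM in PBS and from 2802 to 7724 CPM after ICB. Both sums were therefore separated between these groups, as Entpd1, Adora2a and Adora3 were. How common such separation was among all genes was not counted. In cisplatin tumors the T cell sum was 13.99 to 35.6 CPM and the macrophage sum 847 to 1913 CPM, both overlapping PBS. The summed neutrophil markers were 9.11 to 17.9 CPM in PBS, 16.0 to 31.9 CPM after cisplatin and 33.9 to 105 CPM after cisplatin+ICB, the groups in which Nt5e was highest, but 59.1 to 164 CPM after ICB. Sums of other markers were also separated between groups. The mesothelioma sum was 273 to 361 CPM in PBS and 54.6 to 218 CPM after ICB, and the endothelial sum 69.5 to 130 CPM in PBS and 134 to 272 CPM after ICB. After 5-FU the fibroblast sum was 2383 to 4569 CPM, compared to 668 to 2233 CPM in PBS, and the osteoclast sum 183 to 309 CPM, compared to 1189 to 2123 CPM in PBS. The part of the leukocytes and of these cells in the changes of the 6 genes was not tested.

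As a description, each gene was expressed relative to Ptprc in the same tumor, as log2 CPM of the gene minus log2 CPM of Ptprc. Entpd1 stood at -2.05 ± 0.19 (mean ± SD) in PBS and -1.26 ± 0.08 after ICB, so it was also higher relative to Ptprc. Adora2a stood at -6.03 in PBS, -5.32 after ICB and -4.94 after 5-FU+ICB. Adora3 stood at -7.07 in PBS and -6.78 after ICB, a small shift, and at -7.21 after 5-FU+ICB, where the difference from PBS was -0.14 in all tumors and 0.29 without 5-FU+ICB tumor 5. For other genes the direction after ICB turned, with Nt5e at -3.34 in PBS and -4.69 after ICB, Adora2b at -4.30 in PBS and -5.75 after ICB, and Ada at -2.80 in PBS and -3.66 after ICB. Nt5e after cisplatin+ICB was also below PBS on this scale, at -3.50, and its difference from PBS was -0.17, or -0.59 without cisplatin+ICB tumor 1. After cisplatin it was above PBS, at -2.74. In the other comparisons to PBS, the difference turned below 0 on this scale for Nt5e (-1.35), Adora2b (-0.73) and Ada (-1.19) after 5-FU+ICB, for Nt5e (-0.80) and Adora2b (-0.11) after 5-FU, for Adora2a (-0.10) and Adora2b (-0.16) after cisplatin and for Adora2b (-0.41) and Ada (-0.90) after cisplatin+ICB.

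**Figure D3:**
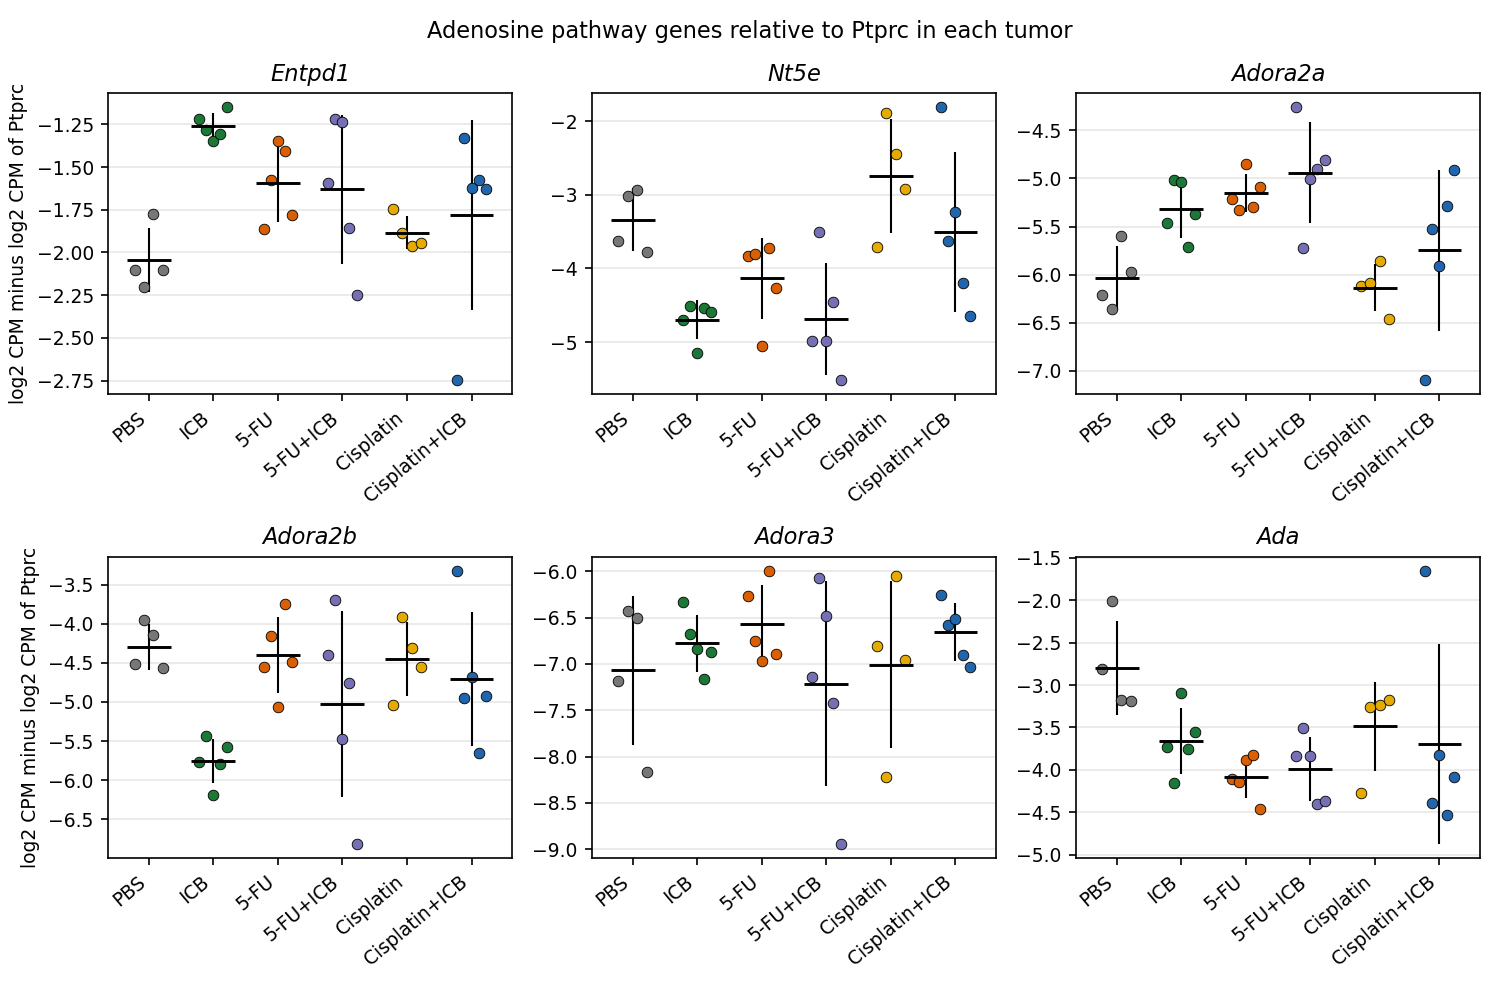
Log2 CPM of each gene minus log2 CPM of Ptprc in every tumor by group; lines are group means and bars are SD. Entpd1 in ICB tumors (-1.26) lies above PBS (-2.05), whereas Nt5e, Adora2b and Ada in ICB tumors lie below PBS.

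Over the 28 tumors, log2 CPM of Entpd1 had a Pearson r of 0.95 with Adora2a and 0.82 with Adora3, and Adora2a had 0.74 with Adora3. The r of Entpd1 with Nt5e was 0.14. The r with Ptprc was 0.95 for Entpd1, 0.96 for Adora2a, 0.76 for Adora3, 0.70 for Ada, 0.54 for Adora2b and 0.27 for Nt5e. These tumors fall into treatment groups and share their controls, so the values describe the data and were not tested.

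Among 13333 genes, those with profiles most like Entpd1 were Slamf7 (r = 0.99), a receptor of the SLAM family, Cybb (0.98), a subunit of the phagocyte NADPH oxidase, and Il18bp (0.98), the interleukin-18 binding protein. Those most like Adora2a were Prkcq (0.99), a kinase of T cell receptor signaling, Tbx21 (0.99), the transcription factor T-bet, and Cd6 (0.98), a T cell surface receptor. Adora3 was most like the inhibitory Fc receptor gene Fcgr2b (0.91), the thromboxane synthase gene Tbxas1 (0.89) and Pdcd1lg2 (0.88), which encodes PD-L2. Nt5e was most like S100a8 (0.82), Gm13212 (0.79) and S100a9 (0.79), of which S100a8 and S100a9 encode calprotectin of neutrophils. Adora2b was most like the acute-phase gene Saa3 (0.88) and the chemokine genes Ccl7 (0.86) and Pf4 (0.84), and Ada was most like Vamp8, Necap2 and Cbr1 (0.96 each).

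Other genes of purine handling were examined in lists. Of all genes, 19.0% were called higher and 18.8% lower in ICB compared to PBS, 9.98% and 13.0% in 5-FU compared to PBS, and 21.9% and 18.7% in 5-FU+ICB compared to PBS, and 4.70% were called higher in cisplatin+ICB compared to PBS. The median log2 fold change of all genes was -0.03 for ICB and -0.0060 for 5-FU compared to PBS, and -0.04 for 5-FU+ICB. For fits without a tumor the share of all genes called was not counted, so list counts from them have no background. Of 7 other ecto-enzymes tested, 3 rose after ICB (list median log2 1.21), against 19.0% of all genes. These were Cd38 (log2 4.05) and Bst1 (3.46), which split NAD, and Enpp1 (1.21), which splits ATP to AMP. After 5-FU, Cd38 (2.21) and Bst1 (1.15) rose. After 5-FU+ICB, 5 of 7 rose, led by the phosphatase Alpl (4.14), Cd38 (3.96), Bst1 (2.83) and the ATPase Entpd2 (2.79), and after cisplatin+ICB Cd38 (3.08) and Bst1 (2.69) rose. Without 5-FU+ICB tumor 5, Alpl was at log2 1.84 (adjusted p = 0.0102) and Entpd2 at 1.93 (adjusted p = 0.0422), and the 5 genes were called without tumor 2 or tumor 5.

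Of 7 genes for ATP release and sensing, 5 rose after ICB (list median 1.78). These included the nucleotide receptor genes P2ry14 (log2 2.64), P2rx4 (1.87) and P2ry6 (1.78) and the channel gene Panx1 (1.84). After 5-FU alone 0 of 7 were called by edgeR, with a list median of 0.73 (2 by DESeq2 and 2 at an unadjusted p under 0.05), after 5-FU+ICB 6 of 7, and after cisplatin+ICB only P2ry14 (1.497), or 5 of 7 without cisplatin+ICB tumor 1. Of 5 nucleoside transporters tested in the 5-FU matrix, Slc28a2 (2.87), a concentrative transporter, and the intracellular Slc29a3 (1.69) rose after ICB (list median 1.69).

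Of 7 genes that remove adenosine or salvage purines, 4 rose and 2 fell after ICB (list median 0.64), against 19.0% of all genes called higher and 18.8% lower. Those that rose were Xdh (log2 2.29), xanthine dehydrogenase, Dpp4 (2.25), the cell-surface peptidase CD26, Gda (1.75), guanine deaminase, and Pnp (0.64), purine nucleoside phosphorylase. Those that fell were Ahcy (-1.53), which releases adenosine from S-adenosylhomocysteine, and Adk (-1.11), adenosine kinase. After 5-FU+ICB the counts were again 4 higher and 2 lower. After cisplatin+ICB only Xdh (1.87) and Gda (1.59) rose, and none fell, but 5 of 7 were called without cisplatin+ICB tumor 1, with Dpp4, Adk and Ahcy added. Of 5 nucleotidases and AMP deaminases tested (list median 0.03 after ICB), Ampd3 rose after ICB (2.72), 5-FU (1.27), 5-FU+ICB (2.13) and cisplatin+ICB (1.87).

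Downstream of the receptors, 7 of 8 cAMP response genes rose after ICB (list median 1.37), led by the nuclear receptor gene Nr4a3 (log2 2.93), the phosphodiesterase gene Pde4b (1.74), Per1 (1.68) and the kinase gene Sik1 (1.56). After 5-FU 6 of 8 rose (list median 1.72), led by Nr4a3 (3.90), Nr4a1 (3.24), Nr4a2 (2.25) and Sik1 (2.195). The list was called for 7 of 8 genes after 5-FU+ICB and for none by edgeR after cisplatin+ICB (3 by DESeq2, 4 at an unadjusted p under 0.05 and 6 by edgeR without cisplatin+ICB tumor 1). For cisplatin+ICB compared to PBS, 4204 of 17819 genes had an unadjusted edgeR p under 0.05, and DESeq2 called 2156. The share of all genes called without tumor 1 was not counted. Of 9 cAMP signalling genes, the adenylate cyclase genes Adcy4 (1.51), Adcy9 (1.29) and Adcy7 (1.07) rose after ICB, and Gnas (-0.78), the stimulatory G protein subunit, fell (list median 0.35). These genes respond to many signals besides adenosine.

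Hypoxia is a known inducer of Nt5e, Entpd1 and Adora2b, so hypoxia-induced genes were followed beside them. After ICB 2 of 10 rose, Slc2a1 (log2 1.29) and Ndrg1 (1.13), a share close to the 19.0% of all genes called higher (list median 0.19). After 5-FU 6 of 10 fell (list median -1.05), against 13.0% of all genes, led by Car9 (-2.78), Bnip3 (-2.22), Ankrd37 (-2.19) and Pdk1 (-2.02), and 6 of 10 also fell after 5-FU+ICB (list median -0.76), against 18.7% of all genes. Without 5-FU+ICB tumor 2, Ankrd37 was not called after 5-FU+ICB (adjusted p = 0.0602), while Ndrg1 and Slc2a1 were newly called. After cisplatin+ICB Ndrg1 (0.83) and Slc2a1 (0.80) rose, and without tumor 1, whose hypoxia sum was 5584 CPM compared to 1006 to 1758 CPM in PBS, they were at log2 0.79 (adjusted p = 0.0093) and 0.92 (adjusted p = 0.0069). Pdk1 was newly called without tumor 1. The part of hypoxia in the levels of the 6 genes was not tested. No list had a called gene after cisplatin alone by edgeR, and among the genes of these lists only Gda and Per1 had an unadjusted p under 0.05 with a log2 fold change over 0.5.

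**Figure D4:**
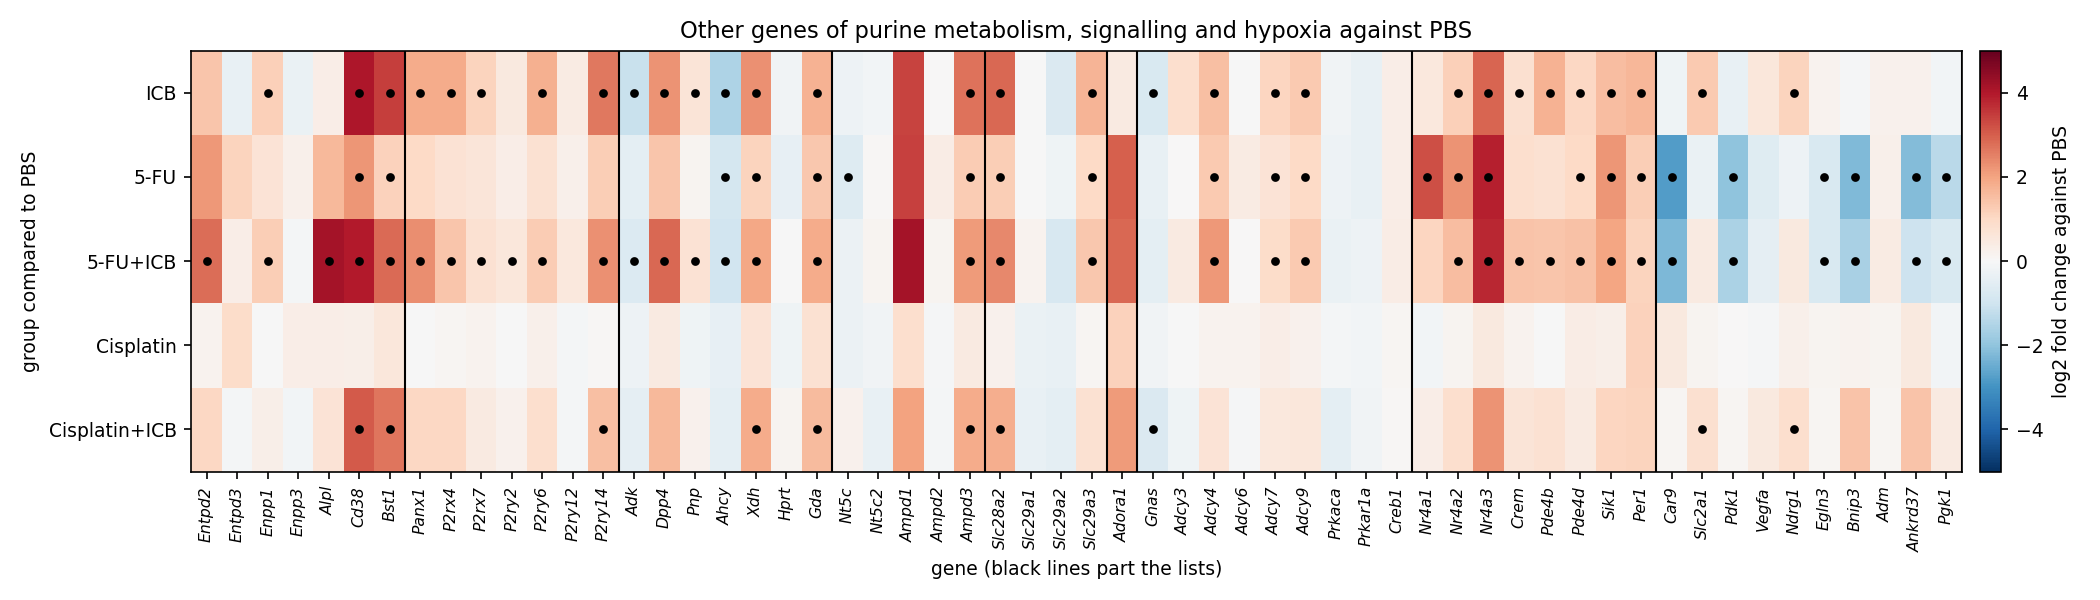
Log2 fold change compared to PBS (color) of other purine, cAMP and hypoxia genes with a value in every comparison, by treated group; dots mark called genes and black lines part the lists. Cd38 and Bst1 are dotted in 4 of 5 rows, 6 hypoxia genes are dotted in blue in the 5-FU and 5-FU+ICB rows, and the cisplatin row has no dot.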

How the data were processed

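Whole-tumor RNA was sequenced as 100-bp single-end reads. Per the submitters' processing notes, the authors used bcl2fastq 2.20.0.422 and kallisto 0.46.0 with GRCm38 (mm10), and they deposited estimated counts per gene, not normalized, in 2 matrices that share 9 PBS and ICB tumors with identical values. Of the values, 23.7% were not whole, and they were rounded. Genes were filtered with filterByExpr and tested with edgeR 4.0.16 (R 4.3.3, limma 3.58.1) by the quasi-likelihood F test with TMM scaling and Benjamini-Hochberg adjustment over all genes. The 5-FU groups and the cisplatin groups were each fitted with PBS and ICB, and the joined 28 tumors were used for direct and averaged effects. Intervals are the estimate ± 1.96 SE, which is narrower than the F test's degrees of freedom would give. Each tumor came from another mouse. Log2 CPM used a prior count of 2. The scripts were tested on simulated data. The 6 genes and the lists were chosen with earlier results of these data known. Of each list, the called genes were named, at most 4 per comparison by size of change, and for each of the 6 genes the 3 most similar by Pearson r were named. Alternatives included other scaling, filters, DESeq2 1.42.0 and leaving out each tumor. Counting intervals and floors cover counting error only.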

Additional observations from a re-analysis of the deposited data

Results flagged for a closer look

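Of 36 sets of a gene and a treatment group, 4 held a tumor whose distance from its nearest neighbour was a large share of the group's range, and chance gives about 1 in 20 such sets. Adora2b in PBS tumor 2 was the highest of 4 at 6.71 CPM. Adora3 in ICB tumor 4 was the lowest of 5 at 1.64 CPM. Adora3 in cisplatin tumor 2 was the lowest of 4 at 0.190 CPM, close to the floor of 3 counts. Ada in cisplatin tumor 4 was the highest of 4 at 15.9 CPM.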

How the results depend on the processing

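Of 2839 values of the 6 genes in alternatives with a test, 2671 kept their direction and side of the threshold, 40 passed it newly, 83 no longer passed it and 45 turned sign. Of 102 values relative to Ptprc, which have no test, 40 turned sign, 5 of them in called results, and 35 others moved by more than the spread between tumors. Entpd1, Adora2a and Adora3 in ICB compared to PBS, and these genes and Adora2b in 5-FU+ICB compared to PBS, were called in every alternative with a test. The Entpd1 call in 5-FU compared to PBS also held in all 26 alternatives. The Adora2a and Adora3 calls in 5-FU compared to PBS were lost in some alternatives. So were the calls in cisplatin+ICB compared to PBS and of the average 5-FU effect. Low counts of Adora3 and Adora2a in PBS limit their precision.

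With unadjusted p-values, which 9125 of 17916 genes passed for ICB compared to PBS and 4754 of 18521 for 5-FU+ICB compared to cisplatin+ICB, the number of the 6 genes called went from 3 to 5 for ICB compared to PBS in either matrix, from 0 to 1 for 5-FU+ICB and for cisplatin+ICB compared to ICB, for cisplatin compared to PBS, for the cisplatin interaction and for the average cisplatin effect, from 0 to 2 for the 5-FU interaction and for 5-FU+ICB compared to cisplatin+ICB, from 0 to 3 for 5-FU+ICB against 5-FU, and from 0 to 5 for cisplatin+ICB compared to cisplatin and for 5-FU compared to cisplatin. Of all genes, 7459 of 17819 had an unadjusted p under 0.05 for ICB compared to PBS in the cisplatin matrix. The numbers were 4283 of 17916 for the 5-FU interaction and 871 of 18521 for the average cisplatin effect. DESeq2 gave 5 for ICB compared to PBS, 2 for the 5-FU interaction, 2 for cisplatin+ICB compared to cisplatin and 1 for 5-FU compared to cisplatin. For ICB compared to PBS, edgeR called 6771 of all genes and DESeq2 7403. Over all genes, edgeR and DESeq2 called 41 and 327 for 5-FU+ICB compared to ICB, 2 and 539 for 5-FU+ICB against 5-FU, 16 and 1542 for the 5-FU interaction, 1087 and 2156 for cisplatin+ICB compared to PBS, 67 and 663 for 5-FU compared to cisplatin, 55 and 1620 for 5-FU+ICB compared to cisplatin+ICB, 1247 and 2105 for the average 5-FU effect and 1 and 11 for the average cisplatin effect. With all 6 groups in one fit, 5-FU compared to PBS gave 1. With the compared groups alone, cisplatin+ICB compared to PBS gave 0 and 5-FU compared to cisplatin gave 1. Without a filter, the average 5-FU effect gave 1. Without 5-FU+ICB tumor 2 and cisplatin+ICB tumor 1, an alternative chosen after seeing the data, 5-FU compared to cisplatin gave 3 and the average 5-FU effect gave 3. For fits that left tumors out, here and below, the share of all genes called was not counted.

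Leaving out each tumor gave 3 to 5 for ICB compared to PBS in either matrix, 1 to 3 for 5-FU, 4 to 5 for 5-FU+ICB and 0 to 5 for cisplatin+ICB compared to PBS, 0 to 2 for 5-FU+ICB against 5-FU, for cisplatin+ICB compared to cisplatin and for the average 5-FU effect, 0 to 1 for the 5-FU interaction, for 5-FU compared to cisplatin and for 5-FU+ICB compared to cisplatin+ICB, 4 to 6 for the average ICB effect, 5 to 6 for any difference among groups, and 0 for the other comparisons.

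Same-numbered tumors showed no common direction of deviation, with 66 correlations from -0.63 to 0.66 (median -0.02), 21 of them over 0.1. Tumors with different numbers were not compared, so these values do not settle whether some numbers pair the tumors. With a replicate block, 5-FU compared to PBS gave 2 in place of 3, cisplatin+ICB compared to PBS gave 0, the average 5-FU effect 0 and any difference among groups 4.

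Of called results relative to Ptprc, the log2 difference turned to -0.73 for Adora2b and -0.14 for Adora3 in 5-FU+ICB compared to PBS (-0.28 and 0.29 without 5-FU+ICB tumor 5, -1.06 and -0.43 without 5-FU+ICB tumor 2), to -0.17 for Nt5e in cisplatin+ICB compared to PBS (-0.59 without cisplatin+ICB tumor 1), and to -0.78 for Adora2b and -0.33 for Ada in the average ICB effect (-0.4972 for Ada without cisplatin+ICB tumor 1). These left-out tumors were chosen after seeing the data. The 5-FU interaction of Ada was -0.058 with DESeq2 size factors, with DESeq2 and with at least 10 counts in every tumor, -0.17 without a filter and -0.017 with all 6 groups. Ada in 5-FU compared to cisplatin was -0.0018 with a replicate block. Leaving out tumors gave Ada -0.49 to 0.40 in the 5-FU interaction, -0.60 to 0.26 in the cisplatin interaction, -0.75 to 0.14 in 5-FU compared to PBS and -0.21 to 0.53 in 5-FU compared to cisplatin. It gave Adora2a -0.018 to 0.33 and Adora2b -0.075 to 0.29 in cisplatin compared to PBS, Adora2b -0.45 to 0.062 in the 5-FU interaction, and Adora3 -0.10 to 0.26 in 5-FU+ICB compared to cisplatin+ICB and -0.21 to 0.11 in the average cisplatin effect. It gave Nt5e -0.0090 to 0.38 in 5-FU compared to PBS, -0.17 to 0.076 in 5-FU+ICB compared to ICB and -0.030 to 0.14 in the average 5-FU effect. The cause of these shifts was not tested.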
